A study of Rattus norvegicus with 6 samples.

Results

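The pancreatic serine proteases of the trypsin, chymotrypsin and elastase classes were followed in AR42J cells, an immortal rat line that came from a tumour of pancreatic acinar tissue. A probe set was taken if the platform annotation gave it the symbol Prss1, Prss3b, Ctrb1, Ctrc, Cela1 or Cela2a, and each was kept separately. This rule gave 6 probe sets for 6 genes, 1 per gene, among 15866 probe sets (10411 named genes) on the array that were not array controls. All 6 passed the filter on low signals, Prss3b only through its treated arrays. The groups were 3 cultures given 100 nM dexamethasone, a synthetic glucocorticoid, for 48 h, and 3 control cultures kept for the same time in the same medium without it. Both groups were thawed at passage 29, plated for 24 h with 20% serum and then moved to medium with 5% serum. The experiment was run 3 times over 5 months, each run giving a treated and a control culture with the same replicate number. Total RNA of each culture was hybridised to 1 Affymetrix Rat 230A array, so the results describe 1 cell line at 1 dose and 1 time.

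Acinar cells make these proteases as inactive zymogens, store them in zymogen granules and release them into the gut when the pancreas is stimulated. There enteropeptidase cuts trypsinogen to trypsin, and trypsin activates the chymotrypsinogens, the proelastases and more trypsinogen. Trypsin cuts proteins after basic residues and chymotrypsins after large hydrophobic residues. Transcription of these genes in acinar cells depends on PTF1, a complex built around the factor Ptf1a, and glucocorticoids are long known to push AR42J cells towards an acinar secretory state.

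Dexamethasone raised 5 of the 6 protease probe sets and lowered 0 by limma with Benjamini-Hochberg adjustment over all 9520 probe sets tested, at an adjusted p of 0.05. Across those probe sets 15.9% were called higher and 21.2% lower. On the log2 scale the trypsinogen gene Prss1 rose by 4.42, the chymotrypsin gene Ctrc by 2.82, the elastase gene Cela2a by 1.81 and the chymotrypsinogen gene Ctrb1 by 0.46. The other trypsinogen gene, Prss3b, rose by at least 3.58 with its dim controls raised to their background level. Prss3b passed the filter on low signals only through its treated arrays. Its call, counted among the 5, was made on the deposited signals, with only 1 of 3 control arrays above background. The elastase gene Cela1 did not pass the test. The median change over all probe sets tested was -0.05. On 5 of the 6 protease probe sets, Prss3b among them, all 3 treated arrays lay above all 3 control arrays. The same held on 22.0% of the probe sets tested. Changes within one class lay far apart: Ctrc from Ctrb1 among the chymotrypsins and Cela2a from Cela1 among the elastases. Their control levels differed too, with means of 2874 for Ctrc and 4450 for Cela2a, against 16003 for Ctrb1 and 10540 for Cela1.

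**Figure D1:**
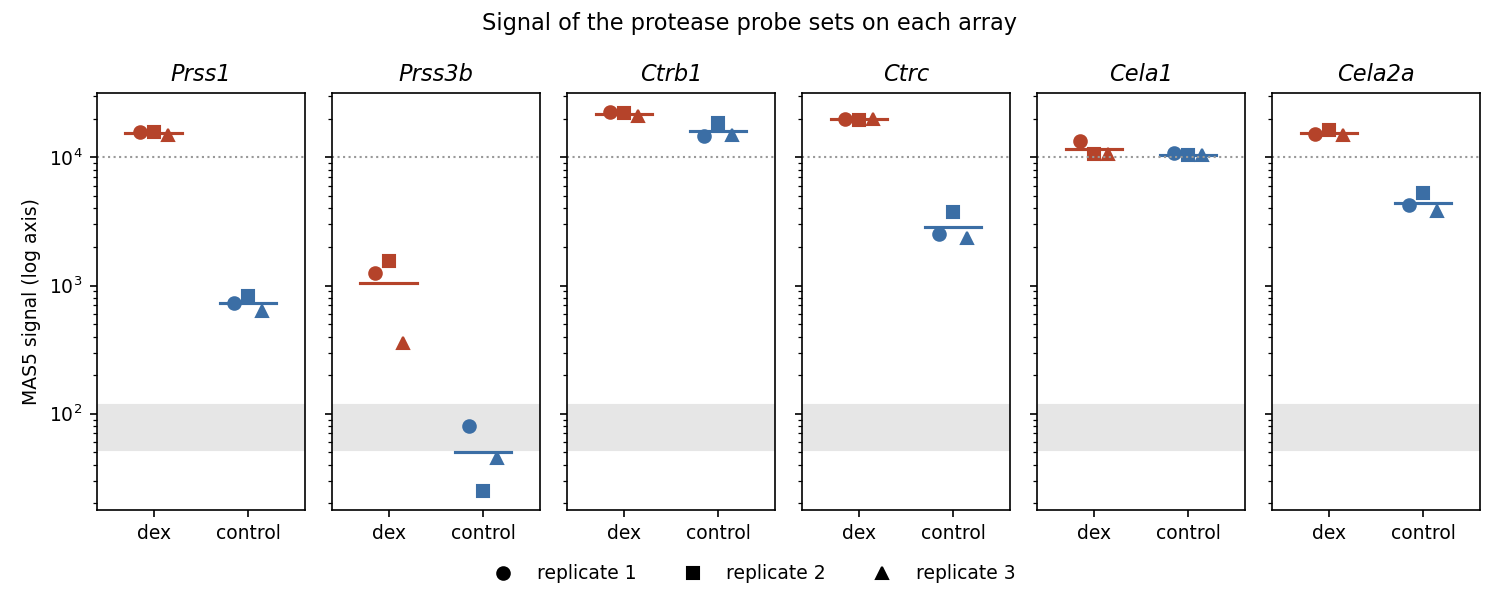
MAS5 signal (log axis) of the 6 probe sets on each array, with dexamethasone arrays (red) left of control arrays (blue), a symbol per replicate number and a bar at each group's mean. The grey band spans the background levels of the 6 arrays and the dotted line marks a signal of 10000, above which 5 of the 6 probe sets lay on every treated array.

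Arrays carried a trimmed mean signal of about 498 each, and 68.3% to 72.7% of probe sets on treated arrays and 71.3% to 79.5% on control arrays lay above the array's background level (83.7 to 115.9 on treated arrays, 51.7 to 97.3 on control arrays). This level was set, array by array, at the brightest of 27 probe sets for Bacillus genes. The first principal component held 76.0% of the variance and separated the groups. On the second, with 10.0%, dexamethasone 3 scored 25.3, apart from dexamethasone 1 (-11.6) and dexamethasone 2 (-12.6). Of 8 acinar markers, a list that includes proteases described here, 7 were on the array and all 7 lay above background on every array. The summed signal of these 7 ranged from 83274 to 94606 on treated arrays and from 60478 to 71688 on control arrays. Because Prss1, Ctrb1 and Cela1 are among the 7, these sums hold the changes described here and are no separate result. Prss1 alone averaged 15481 on treated and 726.1 on control arrays. Of the remaining markers Amy2a3 (log2 change 0.32), Ptf1a (0.61) and Bhlha15 (0.59) were called higher, while Cpa1 (-0.22) did not pass. In RNA from whole cultures, more cells making a transcript and more transcript per cell cannot be told apart.

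Upstream sequence is shown for 2 proteases with large changes and 2 with small ones, picked after their windows had been read for one known acinar promoter motif. RefSeq's promoter table for the rat assembly GRCr8 held 5 of the 6 genes, all but Cela2a. The 250 bases before the annotated start are printed 5′ to 3′ on the gene's strand for Prss1 (chr4:71330999-71331248, plus strand), Ctrc (chr5:159439558-159439807, minus strand), Ctrb1 (chr19:56566979-56567228, minus strand) and Cela1 (chr7:133665062-133665311, minus strand). Capitals mark a TATA box (TATAAA), a TC-box (TTTCCC, or GGGAAA on the opposite strand) and any E-box (CANNTG) that lies 4 bases before a TC-box.
Prss1: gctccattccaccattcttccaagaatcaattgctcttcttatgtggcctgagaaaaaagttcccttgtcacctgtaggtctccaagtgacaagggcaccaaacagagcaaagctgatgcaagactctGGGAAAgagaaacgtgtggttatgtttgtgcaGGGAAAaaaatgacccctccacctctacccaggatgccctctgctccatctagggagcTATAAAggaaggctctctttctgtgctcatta
Ctrc: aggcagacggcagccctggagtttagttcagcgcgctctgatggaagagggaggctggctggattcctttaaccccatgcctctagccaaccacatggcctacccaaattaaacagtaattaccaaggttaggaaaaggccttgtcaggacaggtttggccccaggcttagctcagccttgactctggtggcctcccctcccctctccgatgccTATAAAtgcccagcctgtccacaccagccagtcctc
Ctrb1: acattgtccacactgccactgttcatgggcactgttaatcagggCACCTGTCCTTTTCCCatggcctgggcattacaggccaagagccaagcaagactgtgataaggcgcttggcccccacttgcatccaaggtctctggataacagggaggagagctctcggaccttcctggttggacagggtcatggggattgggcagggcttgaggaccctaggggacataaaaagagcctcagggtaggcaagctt
Cela1: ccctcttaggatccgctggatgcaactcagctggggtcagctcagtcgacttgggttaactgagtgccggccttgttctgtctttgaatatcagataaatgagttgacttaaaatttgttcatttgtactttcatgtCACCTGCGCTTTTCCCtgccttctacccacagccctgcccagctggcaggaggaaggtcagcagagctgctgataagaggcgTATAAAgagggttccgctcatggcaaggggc
PTF1 is known to bind an E-box paired with a TC-box. This pair, CANNTG and then TTTCCC after 4 bases, searched on both strands, was found before Ctrb1 at 206 to 191 bases and before Cela1 at 113 to 98 bases from the start. It was not found in these windows of Prss1, Prss3b or Ctrc. Of 33469 rat upstream windows of the same length 32 held it (0.0956%), an E-box was in 65.5% and a TC-box in 22.0%. The spacing of 4 bases was chosen after the windows of Ctrb1 and Cela1 had been read. Neither the share of that exact spacing nor which proteases hold it is therefore evidence about these genes or their changes. Other spacings were not searched. Prss1 held 2 TC-boxes without that pairing, and Prss3b and Ctrc held none. The full glucocorticoid response element, AGAACA and then TGTTCT after 3 bases, was in none of the 5 windows and in 0.0120% of all windows. Its half-site AGAACA was found in 1 of the 5, Cela1, and in 17.5% of all windows. A match is a run of letters and not a bound site, and sites outside these 250 bases were not looked for.

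**Figure D2:**
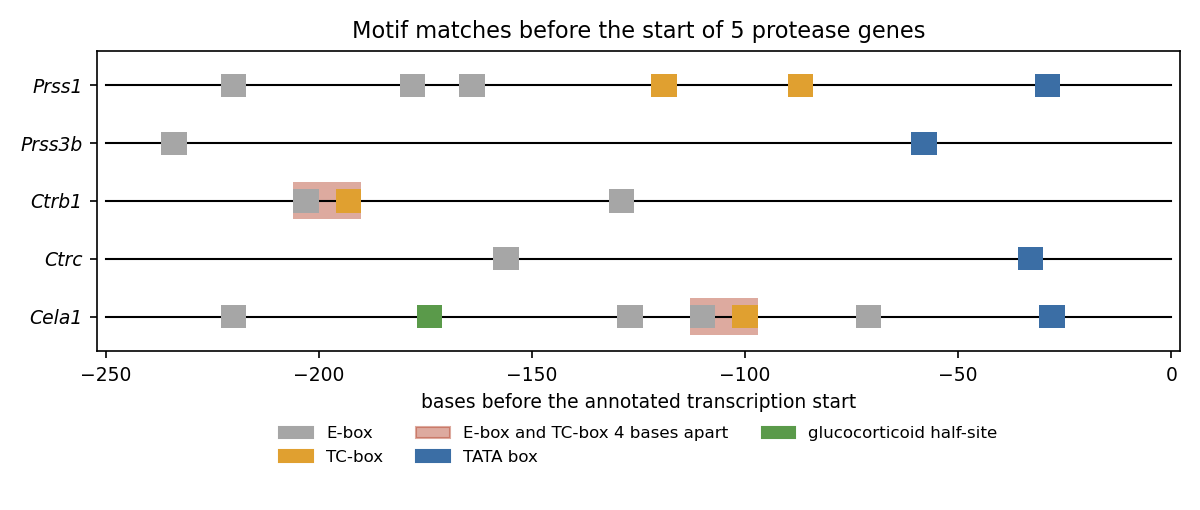
Matches to each motif, on either strand, by their distance in bases from the annotated start for 5 protease genes. The paired E-box and TC-box (pale red) is in the windows of Ctrb1 and Cela1, which had been read before its spacing was chosen.

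Prss1 encodes a trypsinogen, the zymogen whose activation starts the cascade. Its signal was 15685, 15694 and 15065 in dexamethasone 1 to 3, against 724.6, 825.7 and 627.9 in control 1 to 3. The groups were far apart and each was narrow, so Prss1 averaged 15481 ± 361 in treated and 726.1 ± 98.9 in control cultures (SD, n = 3 each), a 21.5-fold higher level with dexamethasone. Within replicate pairs the log2 change was 4.44, 4.25 and 4.58. The estimate was 4.42 ± 0.11 (SE; 95% interval 4.17 to 4.68; adjusted p = 1.5e-07 by limma).

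Prss3b belongs to the same trypsinogen family. Its signal was 1251, 1546 and 357.0 in dexamethasone 1 to 3, against 80.2, 25.0 and 44.7 in control 1 to 3. Every treated array was above its background level, but only control 1 was. With control 2 and 3 raised to the background level of their arrays, the log2 change was at least 3.58 and the pair values were 3.96, 3.99 and 2.79. On the signals as deposited limma gave 4.30 ± 0.46 (95% interval 3.27 to 5.34; adjusted p = 0.00014) and the pairs 3.96, 5.95 and 3.00, which rest on 2 control signals below background. That interval comes from the variance moderated by limma and leaves out the pair values 5.95 and 3.00, so it understates the spread over pairs. The spread of Prss3b was the widest of the 6: the coefficient of variation was 58.9% in treated and 56.0% in control cultures, against 2.33% and 13.6% for Prss1. Leaving out replicate 2 gave 3.48 and leaving out replicate 3 gave 4.96 on the deposited signals, both past the threshold. The low value was on dexamethasone 3, the array that stood apart, on which Prss1 read 15065.

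The trypsinogen genes of the rat are related copies, and RefSeq places Prss1 and Prss3b on chromosome 4 with 22 annotated genes between them. Probe sequences were not used here, so how far each probe set also reads other trypsinogens is uncertain. Both carry a plain _at suffix, which the maker gives to probe sets without a listed second target. A further trypsinogen, Prss2, was not above background on any array, with signals of 8.8, 7.7 and 7.8 in dexamethasone 1 to 3, against 2.2, 3.5 and 1.2 in control 1 to 3.

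Ctrc encodes chymotrypsin C, which in human pancreas is known to regulate trypsinogen activation and breakdown. Its signal was 19890, 19668 and 20063 in dexamethasone 1 to 3, against 2530, 3751 and 2341 in control 1 to 3. Treated arrays were close together, and the controls were all far below them. Means were 19874 ± 198 in treated and 2874 ± 765 in control cultures, 7.07-fold higher with dexamethasone, with a log2 change of 2.82 ± 0.14 (95% interval 2.51 to 3.13; adjusted p = 2.0e-06). The smallest pair change, 2.39, was in pair 2, against 2.97 in pair 1 and 3.10 in pair 3. Control 2 had the highest Ctrc signal of the 3 controls.

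Ctrb1 encodes chymotrypsinogen B, a main zymogen of the granule. Its signal was 22491, 22292 and 21115 in dexamethasone 1 to 3, against 14616, 18477 and 14915 in control 1 to 3. The groups did not overlap, although control 2 came near. The change of 0.46 ± 0.09 passed the test (1.38-fold; 95% interval 0.26 to 0.67; adjusted p = 0.00434). With quantile normalization it was 0.10 and did not pass (adjusted p = 0.198). The other chymotrypsin on the array, Ctrl (chymotrypsin-like protease), was too dim to be tested, at 129.1 ± 56.5 in treated and 160.5 ± 76.3 in control cultures.

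Cela2a encodes a pancreatic elastase. Its signal was 15235, 16267 and 14949 in dexamethasone 1 to 3, against 4273, 5254 and 3823 in control 1 to 3. No treated value came near the controls. Means of 15484 ± 694 in treated and 4450.2 ± 731.6 in control cultures gave a log2 change of 1.81 ± 0.10 (3.51-fold; 95% interval 1.59 to 2.04; adjusted p = 3.1e-06). Pair changes were 1.83, 1.63 and 1.97.

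Cela1 is the other elastase gene. Its signal was 13427, 10650 and 10704 in dexamethasone 1 to 3, against 10748, 10371 and 10502 in control 1 to 3. Dexamethasone 1 was high, while dexamethasone 2 and 3 lay within the range of the controls. The log2 change was 0.13 ± 0.10 and did not pass (adjusted p = 0.324). Its 95% interval, -0.09 to 0.34, excludes the estimates of the other 5 proteases. The 3 controls varied by 1.82% (coefficient of variation). The sign of the estimate depended on scaling, at -0.15 with quantile normalization and -0.12 when arrays were scaled to the hybridization controls, without passing in either.

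**Figure D3:**
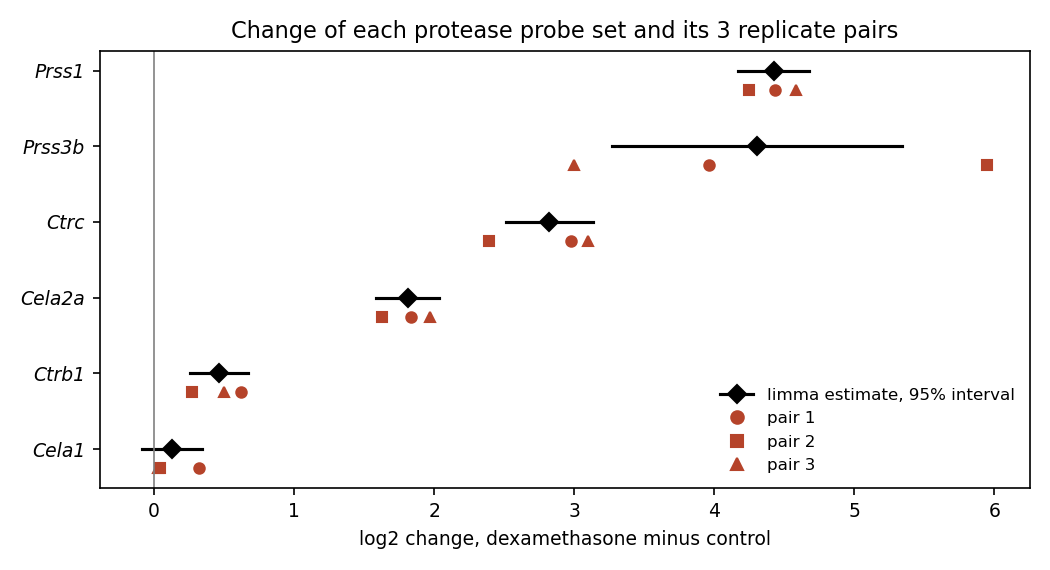
Log2 change (dexamethasone minus control) of each probe set with its 95% interval from limma (black), and the change in each replicate pair (red). Intervals of Prss1 and Prss3b overlap, those of Ctrb1 and Cela1 overlap, and the other neighbours in the order do not. The values of Prss3b are those of the deposited signals, of which 2 controls lay below background.

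In order of change, neighbours differed as follows. On the deposited signals Prss1 exceeded Prss3b in 2 of 3 pairs by a mean log2 difference of 0.12 ± 1.67 (SD over pairs), and Prss3b exceeded Ctrc in 2 of 3 pairs by 1.48 ± 1.88. With such spreads, and with 2 Prss3b controls below background, the place of Prss3b in the order was not settled. Ctrc exceeded Cela2a in 3 of 3 pairs by 1.01 ± 0.22, Cela2a exceeded Ctrb1 in 3 of 3 by 1.35 ± 0.13, and Ctrb1 exceeded Cela1 in 3 of 3 by 0.34 ± 0.12. These differences are described over 3 pairs and were given no test.

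Ctrc and Cela2a are next to each other on chromosome 5, with no annotated gene between them. The genes on either side of this pair did not pass the test. Efhd2, next to Ctrc, had a log2 change of 0.32 ± 0.13 (adjusted p = 0.0948 by limma), and Casp9, next to Cela2a, one of -0.14 ± 0.15 (adjusted p = 0.521) on the 1 of its 3 probe sets that was bright enough to test.

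Most of these signals were very bright. On all 3 treated arrays Prss1, Ctrb1, Ctrc, Cela1 and Cela2a lay above 10000, and on all 3 control arrays Ctrb1 and Cela1 did. The highest signal of any probe set was 23616 to 24602 on treated arrays and 17981 to 22341 on control arrays. For Prss1, Ctrb1, Ctrc and Cela2a the coefficient of variation was 0.996% to 4.48% in treated and 13.4% to 26.6% in control cultures. Cela1 went the other way, at 13.7% in treated and 1.82% in control cultures. Over the 136 tested probe sets with a treated mean above 10000 the median was 4.56%. Whether a ceiling on bright signals narrowed the treated values, or limited the changes of Ctrb1 and Cela1 and so their place in the order, was not tested.

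Bright probe sets as a group also tended to be higher with dexamethasone. Among 111 probe sets with a control mean above 10000, the median log2 change was 0.26, and 57 were called higher and 9 lower. The change of Ctrb1 ranked 4th of these 111 and that of Cela1 ranked 87th. With quantile normalization the median of the 111 was -0.03. In lower ranges of control mean it was 0.02 (5000 to 10000, 182 probe sets), -0.07 (2000 to 5000, 742) and -0.15 (500 to 2000, 3892). At a control mean of 500 or less, the range of Prss3b, the median was 0.04 over 4593 probe sets, with 680 called higher and 529 lower. The ranges were chosen after the data were examined.

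**Figure D4:**
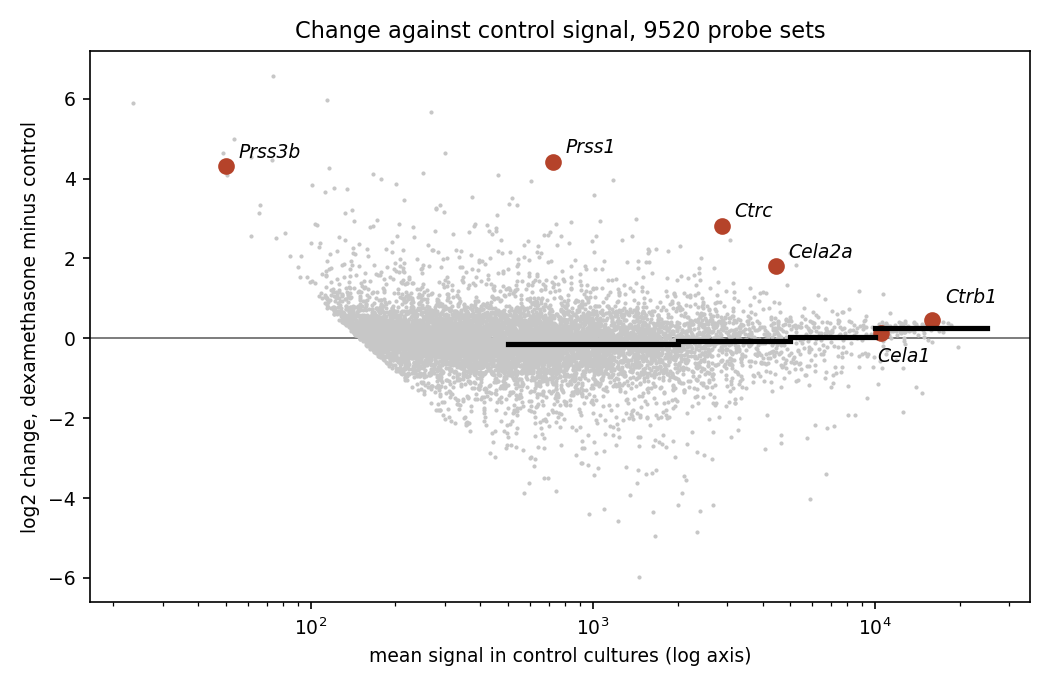
Log2 change (dexamethasone minus control) against mean signal in control cultures (log axis) for every probe set tested (grey), with the 6 proteases in red and black bars at the median change of 4 ranges of control signal. Prss1 lies at 4.42, and in the brightest range Ctrb1 lies above the bar (0.46 against a median of 0.26) and Cela1 below it (0.13).

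Genes whose change was most like that of each protease were ranked by the root mean square difference of the 3 pair changes, over 7045 other genes. Nearest to Prss1 were Cdc42ep2 (difference 0.168), which encodes a Cdc42 effector protein and was above background on 1 of 3 control arrays, so that its difference is not reliable, Gucy2c (0.346), the guanylin receptor, and Gpt (0.402), alanine aminotransferase. Nearest to Ctrc were Pdlim3 (0.0250), Ndrg2 (0.0855) and Ech1 (0.0951), which acts in fatty acid oxidation. Nearest to Cela2a were Hrh3 (0.0565), a histamine receptor, Cobll1 (0.0712) and Mt2A (0.0924), a metallothionein. Nearest to Ctrb1 were Mdh1 (0.0172), Arg1 (0.0266) and Nprl2 (0.0307), of which Arg1 did not itself pass the test (adjusted p = 0.114 by limma). Nearest to Prss3b were C3 (0.718), the complement component, Apoa1 (0.964), an apolipoprotein, and Errfi1 (1.26). Those differences rest on the deposited Prss3b controls, and C3 was above background on 2 of 3 control arrays. How many genes change by a similar amount was not taken into account. The differences therefore cannot be compared between proteases and are no measure of shared regulation.

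Genes of other granule proteins rose or did not pass the test. Of 37 further digestive enzymes and granule proteins listed, 21 were on the array and 11 were bright enough to test. Of these, 6 rose, 0 fell and 5 did not pass, against 17.0% higher and 21.4% lower over all genes tested, while quantile normalization gave 5 higher and 2 lower and hybridization control scaling 4 higher and 1 lower. The list median was 0.66, against -0.04 over all genes tested. Sycn (syncollin, of the zymogen granule membrane) rose to 9261 ± 2404 in treated cultures, against 2687 ± 247 in controls (1.76 ± 0.12), Zg16, a zymogen granule lectin, rose by 1.72 ± 0.21, and Pnlip, pancreatic lipase, by 1.03 ± 0.19.

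A list of protease activators, inhibitors and sensors, which also holds inhibitors of other proteases, was called mostly higher. Of 31 listed, 25 were on the array and 16 were tested: 11 rose, 1 fell and 4 did not pass, against 17.0% higher and 21.4% lower over all genes tested, with 8 higher and 1 lower under hybridization control scaling. The median was 0.54. Serping1, a serpin that inhibits complement proteases, rose by 2.86 ± 0.13, Ctsl, cathepsin L, which degrades trypsinogen, by 2.00 ± 0.11 and Serpina1, the antitrypsin gene, by 1.08 ± 0.13. Ctsb, cathepsin B, which can activate trypsinogen inside the cell, rose to 3746 ± 493 in treated cultures, against 2453 ± 48.3 in controls (0.60 ± 0.11, adjusted p = 0.00351 by limma). Tmprss15, the enteropeptidase gene, had no probe set under a single symbol. F2rl1, a receptor that trypsin cleaves, did not pass (-0.04 ± 0.29, adjusted p = 0.937).

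Spink1, the secretory trypsin inhibitor packed in the same granules, had 3 probe sets. The one that was tested gave 305.5, 238.2 and 238.6 in dexamethasone 1 to 3, against 152.0, 167.3 and 129.3 in control 1 to 3, a rise of 0.80 ± 0.20 (adjusted p = 0.0148 by limma). The other 2 lay above background on all treated arrays and on 0 of 3 control arrays. One gave 483.2, 396.6 and 135.2 in dexamethasone 1 to 3, against 4.4, 4.9 and 8.5 in control 1 to 3, and was at least 4.55-fold higher with dexamethasone, taking the controls at their background level. The other gave 474.5, 482.8 and 119.5 with dexamethasone, against 2.9, 3.2 and 2.9 in controls, and was at least 4.64-fold higher by the same rule. Both were under the filter on mean signal. In the limma fit without that filter their adjusted p was 0.00087 and 0.00029. Those values rest on deposited control signals that were all below background, and the lower bounds were given no test. On both, as for Prss3b, dexamethasone 3 was the lowest of the treated arrays. The 3 probe sets thus moved the same way by different amounts. The tested one carries a plain _at suffix, while the other 2 carry _x_at and _a_at, in the order given. The related Spink1l, too dim to be tested, gave 123.6, 179.0 and 10.0 in dexamethasone 1 to 3. Its signals were 10.7, 1.2 and 2.1 in control 1 to 3, so dexamethasone 3 was the lowest treated array there too. Which of the Spink1 probe sets also reads Spink1l was not tested.

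Transcription factors of acinar genes showed no common direction. Of 13 tested, 5 rose, 4 fell and 4 did not pass, against 17.0% higher and 21.4% lower over all genes tested, with 2 higher and 6 lower under hybridization control scaling and 5 higher and 2 lower under 75th percentile centring. Tcf12, an E protein that can pair with Ptf1a, fell by 1.21 ± 0.12, Rbpj, the subunit of PTF1 that recognises the TC-box in early pancreas, fell by 1.01 ± 0.19, and Hnf4a rose by 0.84 ± 0.16. Ptf1a itself rose to 3985 ± 360 in treated cultures, against 2616 ± 195 in controls (0.61 ± 0.11, adjusted p = 0.00229 by limma). Nr3c1, the glucocorticoid receptor gene, fell by 0.48 ± 0.13 (adjusted p = 0.0157) on 1 of its 2 probe sets, while the other did not pass (-0.47 ± 0.25, adjusted p = 0.175).

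Other serine proteases of the trypsin fold were set beside the 6. Of 63 listed, 36 were on the array and 15 were tested: 4 rose, 2 fell and 9 did not pass, against 17.0% higher and 21.4% lower over all genes tested. Their median was 0.41, against -0.04 over all genes tested. F2, the prothrombin gene, rose by 2.85 ± 0.23, and Cfi, complement factor I, by 1.76 ± 0.19. C1s, a protease of the classical complement pathway, fell by 1.21 ± 0.21.

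Markers of other cell types were read on the same arrays. Of 12 duct cell genes 9 were on the array and 6 were tested: 5 fell and 1 did not pass, against 21.4% lower over all genes tested. Without the replicate block, without the filter or without replicate 1, the number that fell was 3. The summed signal of the 9 ranged from 2177 to 4200 on treated arrays and from 5895 to 7351 on control arrays. Onecut1 fell by 1.77 ± 0.16, Krt19 fell by 1.66 ± 0.32 and Epcam fell by 0.89 ± 0.20. Krt19, a keratin of duct cells, gave 1388, 1423 and 316.2 in dexamethasone 1 to 3, against 2658, 3176 and 2328 in control 1 to 3, so dexamethasone 3 was again the lowest. Of 18 islet genes 15 were on the array and 4 were tested. Of these Chgb, a granin, rose by 0.56 ± 0.12 and 3 did not pass, against 17.0% higher over all genes tested. Gcg, the glucagon gene, was not above background on any array. Under hybridization control scaling 0 islet genes were called by limma. The summed signal of the 15 islet genes ranged from 7274 to 11176 on treated arrays and from 7068 to 7698 on control arrays. Of 19 stromal, endothelial and immune genes 17 were on the array and 4 were tested. Pecam1 rose by 1.05 ± 0.27 and 3 did not pass, against the same 17.0% higher over all genes tested. Without replicate 2 Pecam1 was not called either. Ptprc, the pan-leukocyte marker, was not above background on any array. Their summed signal ranged from 2079 to 2291 on treated arrays and from 1834 to 1999 on control arrays. The part of these markers in the protease changes was not tested.

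**Figure D5:**
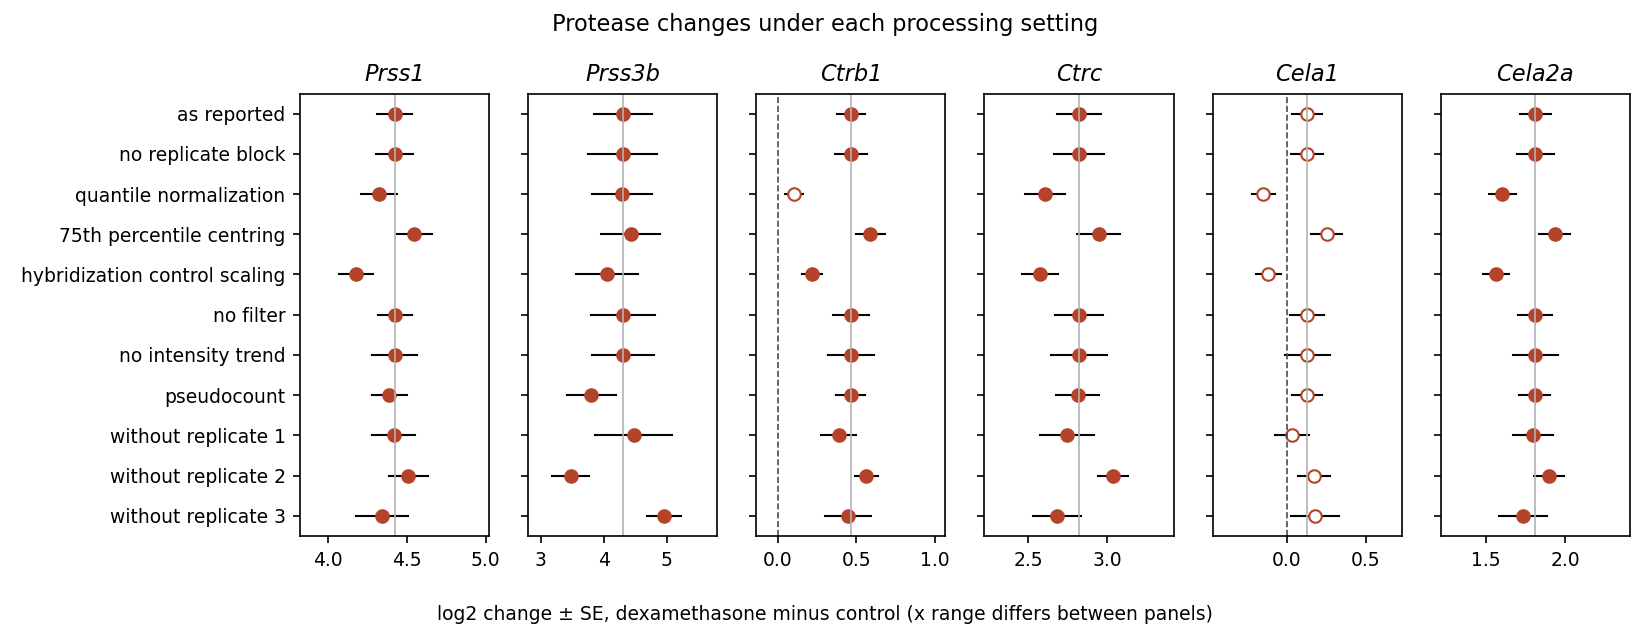
Log2 change ± SE of each protease probe set under the reported setting and 10 others, filled where the adjusted p was under 0.05 and open where it was not, with a grey line at the reported value and a dashed line at 0 where it falls in the panel. Ctrb1 lost its call with quantile normalization, Cela1 was open in every setting, and the remaining 4 were filled in every setting.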

How the data were processed

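Messenger RNA was measured on 6 arrays, 3 per group. Each array's deposited column holds a linear intensity for every probe set. GCOS and MAS5 are named as the authors' software, per the submitters' processing notes. The sources used here give no version, scaling setting or detection call. The trimmed mean was 497.6 to 498.4 per array (2% trimmed at each end), so each signal is a share of its array's brightness. No pair of arrays shared more than 47 identical values.

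Of 15923 probe sets, 57 array controls were left out. Names came from the platform annotation, updated through RefSeq's rat gene table: 12783 had 1 symbol, 312 several and 2771 were unnamed here. The log2 of each deposited signal was used, with 0.1 standing in for 4 zeros. Probe sets whose mean log2 signal reached the 40th percentile (a signal of 147.6) were tested, 9520 in number, for 7051 genes. A gene was represented by its brightest probe set. Arrays were not normalized again. Treatment and replicate number (block) were fitted by lmFit and trended eBayes of limma 3.58.1 (R 4.3.3), and p-values were adjusted by Benjamini-Hochberg, with a threshold of 0.05. The fit was also run on simulated data with independent noise and fewer changed probe sets than were called here. Those data had no pair effect, background floor or ceiling on bright signals, so the run says nothing about these. The block follows the series' design text, which describes independent pairs. Deviations from the group means correlated at -0.10, 0.11 and 0.21 for replicates 1, 2 and 3. Between replicates of different number they correlated at -0.25 to 0.18, and dexamethasone 1 correlated better with control 2 (0.18) than with control 1. The signals thus showed little sign of the pairing, and the pair changes rest on the design text. P-values, SEs and intervals of limma use a variance that eBayes moderates with the trend over all tested probe sets. They are therefore not a measure of the spread of 1 probe set over its own 3 pairs. The number of arrays limits the precision.

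The named genes were every probe set of the 6 members, the 3 largest called changes of each list, 6 genes needed as definitions, and the 3 genes most like each called member in pair changes. Named outside this rule, after their values were seen, were the related proteases Ctrl and Prss2, the related inhibitor Spink1l and the defining markers Gcg and Ptprc. So were the acinar markers Cpa1, Amy2a3 and Bhlha15, the neighbouring genes Efhd2 and Casp9, and Arpc2 and Rogdi, which hold the paired motif. For lower bounds, control signals below their array's background level were raised to it. The members and the 7 lists were chosen with earlier results of these data known. The alternatives were no block, quantile normalization, 75th percentile centring, scaling to hybridization controls, no filter, no trend, a pseudocount of 18.6 and leaving out each replicate. Upstream windows came from RefSeq's GRCr8 promoter table, trimmed to 250 bases.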

Additional observations from a re-analysis of the deposited data

How the results depend on the processing

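Of 60 values (6 proteases under 10 alternative settings), 57 kept their direction and their side of the threshold. With quantile normalization Ctrb1 did not pass (0.10, adjusted p = 0.198 by limma, against 0.00159 to 0.0468 in its other alternatives). Cela1, not called in any setting, changed sign with quantile normalization (-0.15) and with hybridization control scaling (-0.12). Hybridization control scaling moves all probe sets by one amount, which carries Cela1 past 0. The cause of both changes under quantile normalization was not tested. Without the replicate block the same count of 5 proteases was called, and 3542 probe sets in all, against 3531 with it. The count of proteases was 4 with quantile normalization and 5 in each other setting. Prss3b, with its control signals below background, is part of the count in every setting. Leaving out 1 replicate gave 4.34 to 4.51 for Prss1, 3.48 to 4.96 for Prss3b, 2.68 to 3.04 for Ctrc, 1.73 to 1.90 for Cela2a, 0.39 to 0.56 for Ctrb1 and 0.03 to 0.18 for Cela1, and 2381 to 3023 probe sets in all. Called probe sets split into 1512 higher and 2019 lower as reported, 2037 and 1503 with 75th percentile centring, and 778 and 3257 with hybridization control scaling. Over all tested probe sets the median change came to -0.05, 0.08 and -0.29 in that order. These 3 settings differ by 1 constant for all probe sets, so values relative to that median are the same by construction (Prss1 4.47, Ctrb1 0.51, Cela1 0.17). With quantile normalization they were 4.32, 0.10 and -0.16. Called duct genes numbered 3, against 5 as reported, without the block, without the filter and without replicate 1. Chgb lost its call with hybridization control scaling and Pecam1 without replicate 2. Control signals below background limit Prss3b, and saturation of bright signals was not measured.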

Other observations

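The 32 upstream windows that held the paired E-box and TC-box belonged to 32 gene symbols, of which 7 were on the array and 4 were bright enough to test. Besides Ctrb1 and Cela1 the 7 included another pancreatic protease, the trypsinogen gene Prss2, whose probe set was not above background on any array. The other tested genes, Arpc2 (-0.31 ± 0.11, adjusted p = 0.0516 by limma) and Rogdi (0.34 ± 0.13, adjusted p = 0.0724), did not pass. Of the 4 tested, 1 was called higher, Ctrb1, and 0 lower, against 17.0% higher and 21.4% lower over all genes tested. Ctrb1 is itself a gene whose window was read to choose the spacing, so this count is no result about the motif. The list was found after the windows of the proteases had been read, and it is given as values only.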
